A study of Mus musculus with 8 samples.

Results

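The genes described here are 42 genes of the Polycomb and trithorax groups and of histone methylation, a set of complex subunits, methyltransferases, demethylases and the readers that go with them. They were found on the array as the non-control probes that carry the gene's present name or an older one. Jarid1, Jmjd and Mll names were among the older ones, and 10 of the genes had a probe under such a name. For Setd1a those probes were not tested. All 42 were on the array with 94 probes of 41174, and all 42 passed the filter on dim probes, among 17198 genes tested. No member was below background in a whole group and none was saturated. The rule uses no measured value.

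The samples were RNA from R1 cells, a mouse embryonic stem cell line, grown on gelatin in DMEM with a serum replacer. For the 4 LIF samples the medium held LIF, leukaemia inhibitory factor, which keeps mouse stem cells from differentiating, and no feeder cells were used. The 4 butyrate samples had no LIF and grew over 15 passages in sodium butyrate at 0.2 mM, an inhibitor of histone deacetylases. The groups therefore differ in at least 2 ways at once, in LIF and in butyrate, and no sample had both or neither. No number of passages is given for the LIF samples, so time in culture may differ as well. Each of 4 Agilent whole-genome arrays, all on 1 slide, held 1 replicate number, its butyrate RNA in Cy5 and its LIF RNA in Cy3. With that single orientation, dye and treatment cannot be told apart. The labels call the replicates independent but do not say how the cultures were separated, and all come from 1 line, so the p-values reflect how far these 4 replicates differ from one another, and part of that may be technical. Per array, the median signal was 62.8 to 66.0 for LIF and 110 to 111.4 for butyrate, and the number of arrays limits the precision.

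Polycomb repressive complex 2 (PRC2) methylates histone H3 at lysine K27, and Polycomb repressive complex 1 (PRC1) ubiquitinates histone H2A and binds the PRC2 mark through its Cbx subunits. In embryonic stem cells both complexes sit on silent promoters of developmental regulators. The trithorax group works in the opposite sense: COMPASS complexes methylate H3 at lysine K4, a mark of active promoters. Methylation of H3 at lysine K9 marks heterochromatin and is bound by the HP1 proteins (Cbx1, Cbx3 and Cbx5). Demethylases, called erasers here, remove such marks, and methyltransferases, called writers, lay them down.

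The members went both ways. Levels are given as log2 signal per sample after normalization, and differences as the log2 ratio of butyrate over LIF, mean ± SD over 4 arrays. A member passed when its adjusted p in limma's test over all genes was below 0.05. By this rule 33 of the 42 members passed, 15 higher and 18 lower in butyrate, or 78.6% against 74.9% of all genes tested. That share is close to the background. Higher calls made up 35.7% of the members against 41.7% of all genes, and lower calls 42.9% against 33.2%. The median log2 ratio was −0.04 for the members and 0.03 for all genes tested, and the median size of the ratio, its sign aside, was 0.39 against 0.25. These sizes are not matched for brightness. The members' brightest probes were well above background in every sample, while the genes tested include dim ones, whose fold the processing understates. With only probes well above background in every sample, 77.5% of all genes passed. For each of the 33 members that passed, the ratio kept its sign from array to array. The levels of the 4 butyrate and 4 LIF samples did not overlap for 28 members, beside 67.9% of all genes.

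Most differences were small. Of the members that passed, 4 were at least 1.5-fold higher (Suv39h1, Kdm6b, Kmt2a and Suz12) and 6 at least 1.5-fold lower (Phf19, Kdm3a, Ehmt2, Eed, Dpy30 and Kdm4c), in a comparison where 20.3% of all genes passed at that size. Suv39h1 and Kdm6b were over 2-fold higher, and Phf19, at 2.00-fold, was 2-fold lower, where 6.93% of all genes passed at 2-fold or more. In these bulk samples, a change in the number of cells of a type and a change in RNA per cell cannot be told apart.

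**Figure D1:**
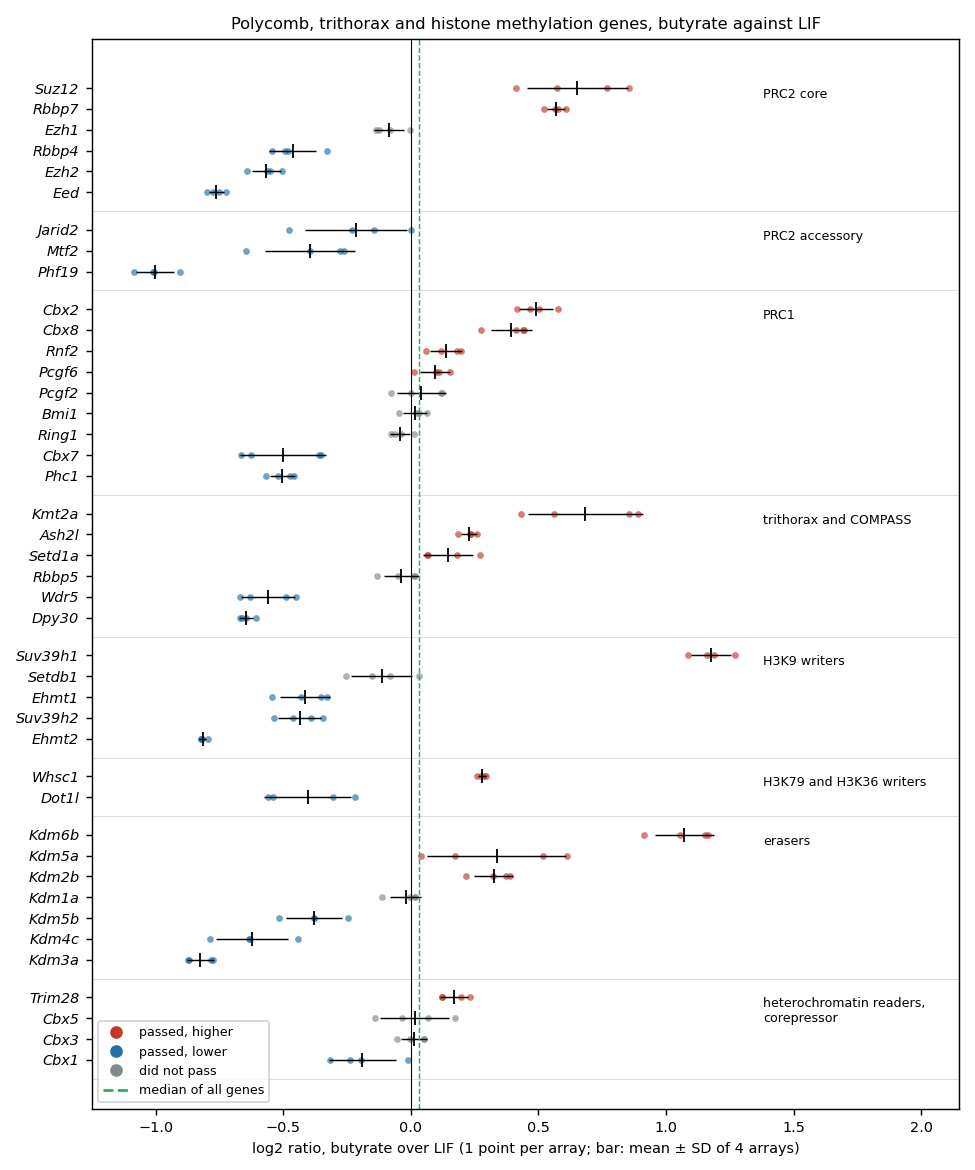
Log2 ratios of butyrate over LIF for the 42 members, grouped by role, with 1 point per array and a bar for the mean ± SD of 4 arrays; red points passed as higher, blue points passed as lower and grey points did not pass, and the dashed line is the median of all genes. Suv39h1 (1.18) and Kdm6b (1.07) lie farthest to the right and Phf19 (−1.0) farthest to the left, and every class of over 3 members has points on both sides of 0; with median centring instead of loess, 11 of the 18 lower members lay above 0.

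The zero line depended on the scaling, which bears on every direction below. Loess normalization put the median of all genes at 0.03. With each array centred on the median of its non-control spots and no loess, that median moved to 0.41, 92.4% of the calls over all genes were higher against 55.7%, and the members passed as 23 higher and 1 lower. In the authors' value table the median lay at −0.06, 46.0% of the calls were higher, and the members split 10 higher and 22 lower. The scanner software's own ratio gave a median of −0.04, 47.3% of calls higher, and 11 higher and 21 lower members. Measured from the median of all genes in each scaling, all 33 members that passed stayed on the same side under these 3 alternatives. The sign of the ratio itself stayed for 22 of them, and the other 11 were lower members that lay above 0 with median centring. Higher and lower below mean relative to the loess centre.

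**Figure D2:**
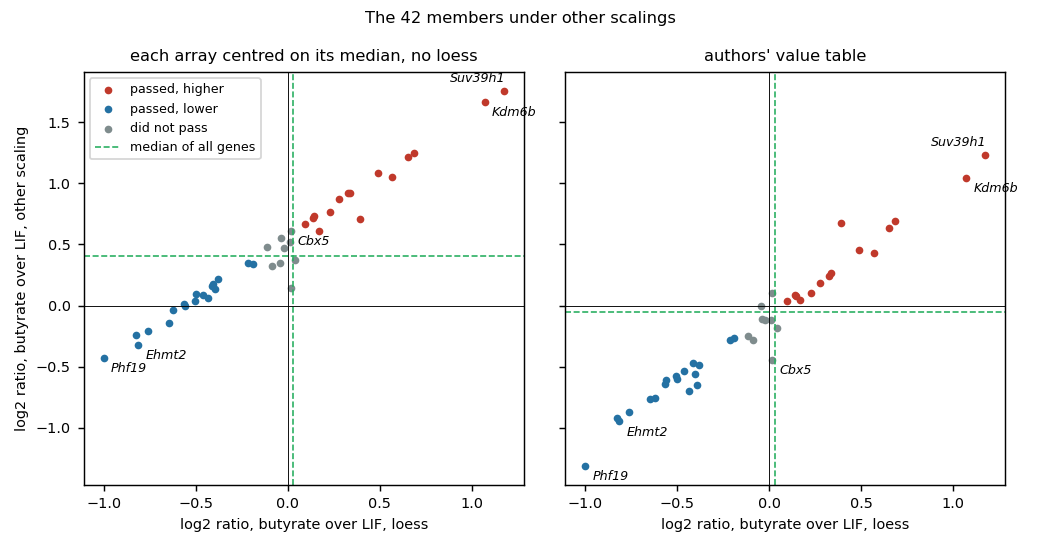
Log2 ratio of each member under loess (horizontal axis) against its ratio with arrays centred on their medians and without loess (left) and in the authors' value table (right); dashed lines mark the median of all genes in each scaling. The left panel lies above the diagonal, with the median of all genes at 0.41 against 0.03, and Suv39h1 and Kdm6b stand at the top and Phf19 at the bottom of both panels.

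Promoter sequence is shown for 3 members, the related writers Suv39h1 and Suv39h2, whose ratios had opposite signs, and Phf19, the member with the lowest ratio. Each sequence is the 250 bases before the annotated start, 5′ to 3′ on the gene's strand, from RefSeq on GRCm38.p6. That table matched 37 of the 42 members, all but Cbx2, Ash2l, Whsc1, Kdm5a and Kdm6b. Capitals mark matches on either strand to 3 motifs, the GC box GGGCGG, the CCAAT box CCAAT and the E2F-type sequence TTTCCCGC. Neighbouring GC boxes can share a base.
Suv39h1, chrX:8074761-8075010, minus strand: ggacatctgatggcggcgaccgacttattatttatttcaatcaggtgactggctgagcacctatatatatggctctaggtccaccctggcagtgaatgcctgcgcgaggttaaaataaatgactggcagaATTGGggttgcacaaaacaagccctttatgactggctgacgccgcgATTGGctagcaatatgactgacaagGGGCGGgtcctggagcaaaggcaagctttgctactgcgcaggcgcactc
Suv39h2, chr2:3474987-3475236, minus strand: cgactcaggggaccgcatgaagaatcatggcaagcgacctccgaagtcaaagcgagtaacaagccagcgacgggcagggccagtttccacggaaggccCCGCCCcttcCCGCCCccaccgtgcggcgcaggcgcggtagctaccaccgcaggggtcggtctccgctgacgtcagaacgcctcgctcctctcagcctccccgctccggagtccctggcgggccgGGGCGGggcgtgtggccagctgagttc
Phf19, chr2:34913977-34914226, minus strand: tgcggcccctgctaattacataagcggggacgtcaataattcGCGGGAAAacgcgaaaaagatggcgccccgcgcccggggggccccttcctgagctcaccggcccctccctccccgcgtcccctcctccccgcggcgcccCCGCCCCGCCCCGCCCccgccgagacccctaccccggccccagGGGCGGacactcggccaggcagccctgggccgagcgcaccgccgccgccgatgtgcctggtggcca
The Suv39h1 window held 11 CpG sites, 1 GC box and 2 CCAAT boxes, and its GC content was 51.6%. The Suv39h2 window held 27 CpG sites and 3 GC boxes, at 69.6% GC, with no CCAAT box. Phf19 had 31 CpG sites, 4 GC boxes and the E2F-type sequence, at 75.2% GC. Over the 37 members the median was 21 CpG sites and 62.0% GC, against 6 and 52.4% over 32851 promoters of the same length. The GC box was found in 73.0% of the members and 32.7% of all promoters, and the CCAAT box in 35.1% and 33.8%. The 32851 promoters were not limited to genes tested here or to 1 per gene, while each member gave 1. The sets are therefore not matched. Other motifs searched on both strands were the E box CACGTG (16.2% of the members and 6.02% of all promoters), the STAT-type TTCNNNGAA (5.41% and 7.02%), TTTCCCGC (5.41% and 0.895%) and its variant TTTGGCGC (2.70% and 0.417%). In that order, the shares of the members stand for only 6, 2, 2 and 1 of the 37 genes. All motif counts are matches of letters in a window and not binding sites.

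The core of PRC2 consists of a methyltransferase, Ezh2 or its relative Ezh1, the scaffold Suz12, the reader of the mark Eed, and the histone-binding proteins Rbbp4 and Rbbp7. Of these 6 genes, 2 passed as higher and 3 as lower. Eed measured 13.06, 13.18, 13.16 and 13.05 in the LIF samples and 12.31, 12.40, 12.43 and 12.25 in the butyrate samples of arrays 1 to 4. Every butyrate sample lay below every LIF sample, and the log2 ratio was −0.76 ± 0.03 (1.70-fold lower, adjusted p = 4.56e-07). Suz12 measured 12.00, 12.07, 12.06 and 12.13 in LIF and 12.85, 12.84, 12.63 and 12.54 in butyrate. It was higher in all 4 butyrate samples, with more spread between arrays (0.65 ± 0.20, 1.57-fold, adjusted p = 6e-05), and its second probe gave 0.82. Within each array Suz12 moved against Eed by 1.21 to 1.61 log2 units (mean 1.41 ± 0.19).

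Rbbp7 measured 14.09, 14.16, 14.06 and 14.01 in LIF and 14.67, 14.68, 14.67 and 14.57 in butyrate, a ratio of 0.57 ± 0.04 (adjusted p = 2.18e-06). The butyrate samples were all above the LIF samples. Its close relative Rbbp4 was lower (−0.46 ± 0.09, adjusted p = 2.65e-05), with all 4 of its probes lower, between −0.67 and −0.15. The difference between the pair was 1.03 ± 0.10 and had the same sign on the 4 arrays. Both proteins also serve in histone deacetylase and remodelling complexes. Ezh2, the main methyltransferase of dividing cells, was 1.48-fold lower (−0.57 ± 0.06, adjusted p = 3.4e-06). Ezh1 had a ratio of −0.09 ± 0.06 and did not pass (adjusted p = 0.0664), but it passed as lower in the authors' value table (−0.28, adjusted p = 0.00132) and when genes were centred on their chromosome's median (−0.29, adjusted p = 0.000213). With median centring it passed as higher than 0 (0.32, adjusted p = 0.0183), below the median of all genes at 0.41. The ratio of Ezh1 exceeded that of Ezh2 by 0.48 ± 0.04, between 0.42 and 0.52 on the 4 arrays. With median centring Ezh2 and Rbbp4 lay at 0.01 and 0.08, below the median of all genes at 0.41.

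The accessory subunits that direct PRC2 to chromatin were measured in Jarid2, Mtf2 and Phf19, and all 3 passed as lower. Phf19, a Polycomb-like protein that reads methylated H3, measured 9.85, 9.72, 9.85 and 9.77 in LIF and 8.77, 8.81, 8.85 and 8.76 in butyrate. Every butyrate sample lay far below the LIF samples, and the ratio was −1.0 ± 0.07 (adjusted p = 2.7e-07), the lowest of the 42 members. It stayed below 0 with median centring (−0.43), where it was the 1 member that passed as lower. Mtf2, its Polycomb-like relative, measured 13.37, 13.24, 13.39 and 13.49 in LIF and 13.10, 12.97, 13.00 and 12.85 in butyrate. Its ratio was −0.40 ± 0.18 (adjusted p = 0.000691), and the 4 probes all passed as lower, between −0.61 and −0.40. Jarid2, a protein related to demethylases that recruits PRC2 in stem cells, measured 12.49, 12.39, 12.62 and 12.87 in LIF and 12.34, 12.39, 12.38 and 12.40 in butyrate. The butyrate samples were nearly level while the LIF samples varied, and the groups overlapped. The Jarid2 ratio of −0.21 ± 0.20 (adjusted p = 0.024) did not pass without replicate 1, 3 or 4 (adjusted p = 0.0508, 0.0722 and 0.0706), although a dimmer second probe gave −0.56. With median centring Mtf2 and Jarid2 lay at 0.14 and 0.35, again below the median of all genes.

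**Figure D3:**
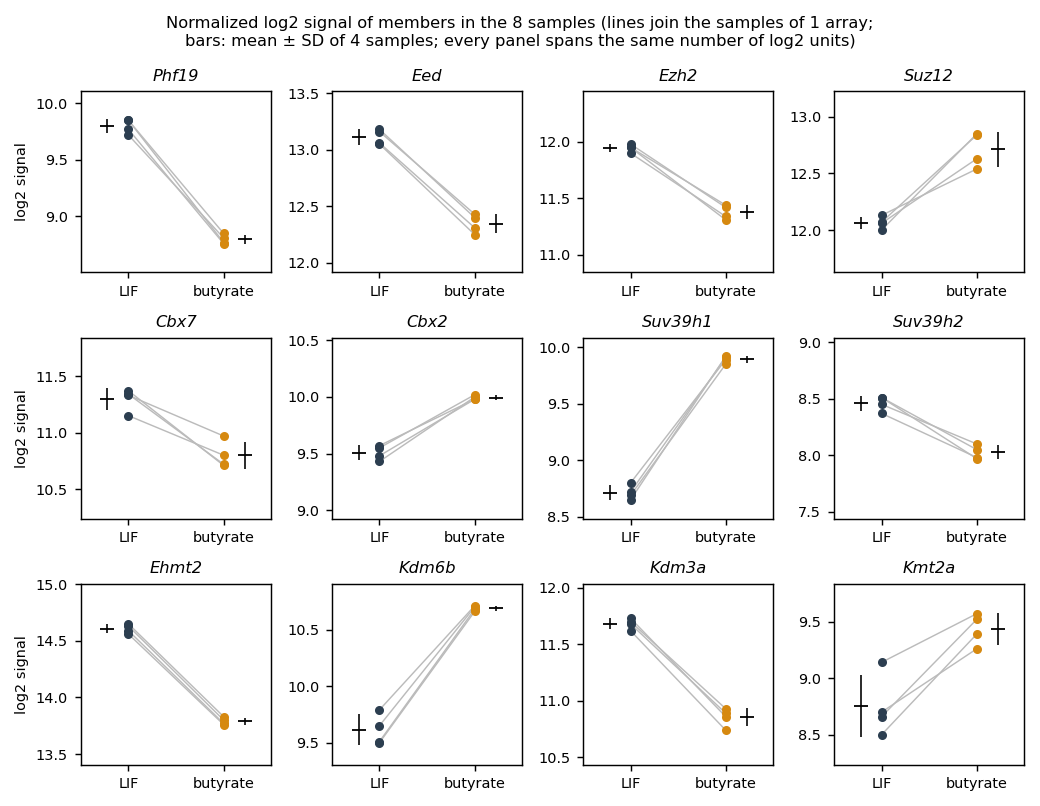
Normalized log2 signal of 12 members in the 4 LIF and 4 butyrate samples; grey lines join the samples of 1 array, bars beside the points give the mean ± SD of 4 samples, and every panel spans the same number of log2 units. The groups do not overlap in any panel: Suz12, Cbx2, Suv39h1, Kdm6b and Kmt2a are higher in butyrate and the other 7 genes lower under loess scaling, and Kmt2a shows the most spread among its LIF samples (8.50 to 9.14).

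PRC1 is built on the ubiquitin ligases Rnf2 (Ring1b) and Ring1, with a Pcgf partner, a chromobox protein and a Polyhomeotic protein. Of its 9 members, 4 passed as higher, 2 as lower and 3 did not pass. Cbx7, the main chromobox protein of undifferentiated stem cells, measured 11.15, 11.33, 11.34 and 11.37 in LIF and 10.80, 10.97, 10.72 and 10.71 in butyrate. It was lower on every array (−0.50 ± 0.17, adjusted p = 0.000135). Cbx2, a chromobox protein that rises in differentiated cells, measured 9.57, 9.55, 9.48 and 9.43 in LIF and 9.98, 10.02, 9.98 and 10.00 in butyrate. It was higher (0.49 ± 0.07, adjusted p = 9.45e-06), with a dimmer second probe at 0.01 that did not pass. Cbx8, another chromobox protein of differentiated cells, was also higher (0.39 ± 0.08, adjusted p = 4.96e-05).

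The ratio of Cbx2 exceeded that of Cbx7 by 0.99 ± 0.23, and the ratio of Cbx8 exceeded that of Cbx7 by 0.89 ± 0.22. Both differences had the same sign on the 4 arrays, and under the other scalings they ran from 0.73 to 1.05 and from 0.62 to 1.30. Cbx2 and Cbx8 lie on chromosome 11, whose genes were higher as a whole, and centring on that chromosome's median left 0.29 and 0.19. Phc1, a Polyhomeotic protein of stem cells, measured 13.50, 13.25, 13.12 and 13.27 in LIF and 12.98, 12.77, 12.67 and 12.70 in butyrate. It was lower on each array (−0.51 ± 0.05, adjusted p = 5.38e-06), although 1 of its 3 probes gave −0.07 and did not pass.

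Among the members, the ligases and Pcgf subunits had smaller ratios than the other PRC1 subunits, 0.14 or less in size. Rnf2, the main ligase, measured 11.68, 11.68, 11.74 and 11.77 in LIF and 11.87, 11.86, 11.85 and 11.83 in butyrate, a ratio of 0.14 ± 0.06 (adjusted p = 0.0104). Its dimmer probe passed in the other direction (−0.33), and the mean of both probes was −0.10 (adjusted p = 0.0241), so Rnf2 counts as higher by its brightest probe alone. That call was also lost in the authors' value table (0.09, adjusted p = 0.0859) and with the scanner's ratio (0.09, adjusted p = 0.0983). Pcgf6, the partner in a variant complex that silences germ line genes, had a ratio of 0.10 ± 0.06 (adjusted p = 0.0467). That call was lost without replicate 1, 2 or 3 (adjusted p = 0.111 to 0.152), and the ratio became −0.08 when centred on its chromosome's median. Ring1 (−0.04), Pcgf2 (0.04) and Bmi1 (0.02) did not pass, and the sign of each depended on the scaling. A Ring1 probe of nearly the same brightness passed as higher (0.10, adjusted p over all probes = 0.0258). Bmi1 passed as higher with no background correction (0.12, adjusted p = 0.00902). With arrays centred on the genes tested and no loess, Bmi1 passed as lower (−0.27, adjusted p = 0.0363). Ring1 and Pcgf2 passed as higher than 0 with median centring (0.35 and 0.37), below the median of all genes.

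The trithorax and COMPASS genes comprised the methyltransferases Kmt2a (Mll1) and Setd1a and the shared core of Wdr5, Rbbp5, Ash2l and Dpy30. A methyltransferase rose while parts of the core fell: 3 genes were higher and 2 lower. Kmt2a, which maintains Hox gene expression, measured 8.66, 8.50, 8.70 and 9.14 in LIF and 9.52, 9.39, 9.26 and 9.57 in butyrate. It was 1.61-fold higher (0.68 ± 0.22, adjusted p = 8.08e-05), and the 4th LIF sample was close to the lowest butyrate sample. Dpy30 measured 14.28, 14.34, 14.29 and 14.27 in LIF and 13.67, 13.67, 13.63 and 13.62 in butyrate. This subunit, which stimulates the methyltransferase, was lower with little spread (−0.65 ± 0.03, adjusted p = 9.86e-07), with its second probe at −0.87. Wdr5, which presents the H3 tail, measured 13.05, 12.80, 12.87 and 13.04 in LIF and 12.42, 12.31, 12.42 and 12.37 in butyrate. It was lower (−0.56 ± 0.11, adjusted p = 1.28e-05), and its second probe gave −0.52. With median centring Dpy30 (−0.15) and Wdr5 (−0.01) no longer passed (adjusted p = 0.413 and 0.973).

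Ash2l, a core subunit needed for full activity, had a small increase (0.23 ± 0.03, adjusted p = 0.000396). It lies on chromosome 8 and had a ratio of −0.06 when centred on that chromosome's median, and its second probe gave −0.09. With the mean of both probes Ash2l did not pass (0.07, adjusted p = 0.0813). Setd1a was higher at 0.15 ± 0.10 (adjusted p = 0.0184), a call lost without replicate 1 or 2 (adjusted p = 0.07 and 0.0622) and with no replicate block (adjusted p = 0.0597). It was also lost in the authors' value table (0.08, adjusted p = 0.146) and with the scanner's ratio (0.08, adjusted p = 0.153). Rbbp5 (−0.04 ± 0.07) did not pass.

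The 5 writers of H3K9 methylation included both the largest increase among the members and 3 decreases. Suv39h1, which trimethylates H3K9 in pericentric heterochromatin, measured 8.69, 8.80, 8.72 and 8.65 in LIF and 9.85, 9.89, 9.91 and 9.92 in butyrate. Every butyrate sample was over 1 log2 unit above every LIF sample, a 2.26-fold increase (1.18 ± 0.08, adjusted p = 1.44e-07). Suv39h2, its paralog with an overlapping role, measured 8.37, 8.45, 8.51 and 8.51 in LIF and 7.98, 8.10, 8.05 and 7.97 in butyrate. It was lower on every array (−0.44 ± 0.08, adjusted p = 2.99e-05), as were its 2 other tested probes (−0.52 and −0.11). The difference between the paralogs was 1.61 ± 0.16 log2 units, 1.43 to 1.81 over the arrays and 1.48 to 1.94 over the other scalings. Suv39h1 was 1 of 16 members with a single tested probe, as were Kdm6b, Phf19, Ehmt2, Eed and Kmt2a. Suv39h1 lies on the X chromosome, whose genes had a median of 0.12.

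Ehmt2 (G9a), the main writer of H3K9 dimethylation in euchromatin, measured 14.65, 14.59, 14.56 and 14.63 in LIF and 13.83, 13.77, 13.76 and 13.80 in butyrate. The decrease was 1.76-fold with an SD of 0.01 (−0.82, adjusted p = 2.78e-07). Ehmt1 (GLP), which forms a heterodimer with Ehmt2, was lower to a smaller degree (−0.41 ± 0.10, adjusted p = 6.04e-05), and the ratio of Ehmt1 exceeded that of Ehmt2 by 0.40 ± 0.10. Setdb1, which silences retroviral elements in stem cells with Trim28, had a ratio of −0.11 ± 0.12 and did not pass (adjusted p = 0.0663). It passed as lower without replicate 2 (−0.16, adjusted p = 0.011) and in the authors' value table (−0.25, adjusted p = 0.00701), but passed as higher with median centring (0.48, adjusted p = 0.0314). With median centring the ratios of Suv39h2 (0.06) and Ehmt1 (0.16) also lay above 0, below the median of all genes.

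Dot1l, the writer of H3 methylation at lysine K79, measured 9.62, 9.56, 9.73 and 9.70 in LIF and 9.32, 9.35, 9.19 and 9.14 in butyrate. It was lower on every array (−0.41 ± 0.17, adjusted p = 0.000503), while a dimmer probe gave −0.07 and did not pass, and median centring gave 0.18. Whsc1 (Nsd2), a writer of H3K36 dimethylation, measured 9.76, 9.66, 9.72 and 9.69 in LIF and 10.02, 9.94, 10.01 and 9.97 in butyrate. It was higher (0.28 ± 0.02, adjusted p = 9.95e-05). Of its 6 tested probes, 5 passed as higher, between 0.26 and 0.87, so the size of the increase differed between probes.

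Among the 7 erasers 3 passed as higher and 3 as lower. Kdm6b (Jmjd3), which removes the PRC2 mark, measured 9.50, 9.51, 9.65 and 9.79 in LIF and 10.66, 10.68, 10.70 and 10.71 in butyrate. The butyrate samples lay close together and all above the LIF samples (1.07 ± 0.12, 2.10-fold, adjusted p = 5.15e-07). Kdm6b lies on chromosome 11, and centring on that chromosome's median left 0.87. Against Ezh2, the writer of the mark that it removes, Kdm6b differed by 1.64 ± 0.06 log2 units, with every array between 1.56 and 1.71.

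Kdm3a (Jmjd1a), an H3K9 demethylase that acts in stem cell maintenance, measured 11.70, 11.68, 11.73 and 11.62 in LIF and 10.93, 10.89, 10.86 and 10.74 in butyrate. It was 1.77-fold lower (−0.83 ± 0.05, adjusted p = 4.41e-07), and its other probes gave −0.66 and −0.21. Kdm4c (Jmjd2c), another H3K9 demethylase, measured 11.32, 11.18, 11.39 and 11.46 in LIF and 10.68, 10.74, 10.76 and 10.68 in butyrate. It was 1.54-fold lower (−0.62 ± 0.14, adjusted p = 1.88e-05), and its second tested probe gave −0.58. Both H3K9 erasers therefore fell under loess scaling on all 5 of their tested probes, and with median centring they lay at −0.24 and −0.03 and did not pass.

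The H3K4 demethylases Kdm5a and Kdm5b had ratios of opposite sign on their brightest probes. Kdm5a was higher (0.34 ± 0.27, adjusted p = 0.0105), but its ratios ran from 0.04 to 0.61 over the arrays, and the call was lost without replicate 1 (adjusted p = 0.0585) and in the authors' value table (adjusted p = 0.0851). Kdm5b, an eraser expressed in stem cells, was lower (−0.38 ± 0.11, adjusted p = 0.000141). Its second probe gave −0.15 and did not pass (adjusted p over all probes = 0.158). The call of Kdm5b was lost with median centring (0.21, adjusted p = 0.282) and with arrays centred on the genes tested and no loess (−0.20, adjusted p = 0.0824). The ratio of Kdm5a exceeded that of Kdm5b by 0.72 ± 0.19. Kdm2b, which brings a PRC1 variant to CpG islands, was higher (0.33 ± 0.08, adjusted p = 0.00014), with its other probes at 0.12 and −0.03. Kdm1a (LSD1), which removes H3K4 methylation from enhancers, had a ratio of −0.02 ± 0.06 and did not pass.

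Writers and erasers were set against each other as groups. Of 11 catalytic writers (Ezh1, Ezh2, Kmt2a, Setd1a, Setdb1, Ehmt1, Ehmt2, Suv39h1, Suv39h2, Dot1l and Whsc1), 4 were higher, 5 lower and 2 did not pass. Of the 7 erasers, 3 were higher, 3 lower and 1 did not pass. The median ratio was −0.11 for the writers and −0.02 for the erasers, a difference of −0.09. Taken array by array, the writers' median lay below the erasers' by 0.17, 0.02, 0.08 and 0.14. On each array the erasers' median was the value of Kdm1a, and the writers' median that of Setdb1 or Ezh1. None of these genes passed (adjusted p = 0.635, 0.0663 and 0.0664 in limma's test), so the difference compares genes in the middle of each group. Over the arrays the difference was −0.10 ± 0.07 (SD, n = 4), and all 4 values were below 0. It had the same sign under the other scalings, at −0.15 with median centring, −0.17 in the authors' value table, −0.22 with the scanner's ratio and −0.27 when genes were centred on their chromosome's median. The members' own ratios ran from −0.82 to 1.18 among the writers and from −0.83 to 1.07 among the erasers. Both groups held members that rose and members that fell.

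**Figure D4:**
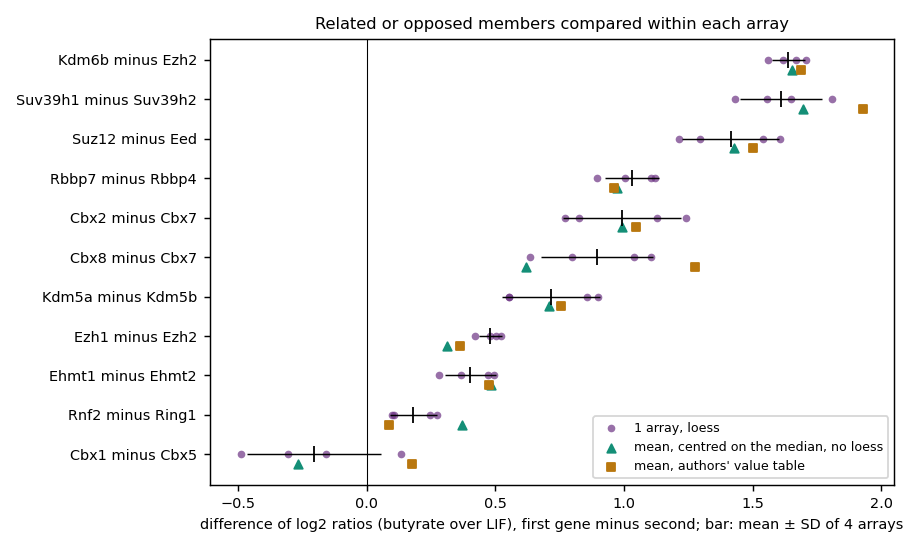
Difference of the log2 ratios of 2 members within each array, first gene minus second, for 11 pairs; purple points are the 4 arrays under loess, bars their mean ± SD, and the triangle and square give the mean with median centring and in the authors' value table. Kdm6b minus Ezh2 (1.64) and Suv39h1 minus Suv39h2 (1.61) differ most, 10 pairs lie above 0 on all 4 arrays and in both other scalings, and Cbx1 minus Cbx5 lies on both sides of 0.

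The corepressor Trim28 (KAP1), which recruits Setdb1, measured 15.38, 15.17, 15.28 and 15.34 in LIF and 15.50, 15.36, 15.52 and 15.46 in butyrate. The groups overlapped, and the ratio of 0.17 ± 0.06 passed (adjusted p = 0.0034) but did not pass in the authors' value table (0.04, adjusted p = 0.397). The HP1 proteins did not move as a family. Cbx1 measured 13.20, 13.44, 13.30 and 13.34 in LIF and 13.19, 13.25, 13.06 and 13.03 in butyrate, a ratio of −0.19 ± 0.13 (adjusted p = 0.0107). Its second probe passed in the other direction (0.12), and the mean of both gave −0.04 (adjusted p = 0.45), so Cbx1 counts as lower by its brightest probe alone. Cbx3 (0.01 ± 0.05) did not pass. Cbx5 (0.02 ± 0.14) did not pass on its brightest probe, but a probe of nearly the same brightness gave −0.31 and passed as lower. Without replicate 2 or 3 that second probe was the brighter of them, and Cbx5 then passed as lower (−0.38 and −0.30).

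Of the 26 members with over 1 tested probe, the probes of 18 all had the same sign and those of 11 were all called the same way. Cbx1 and Rnf2 were the 2 members with probes that passed in opposite directions. Over the 82 tested probes, 24 passed as higher, 35 as lower and 23 did not pass. Of the 33 members that passed, 29 kept sign and call with each replicate left out, and 4 lost the call (Jarid2, Pcgf6, Setd1a and Kdm5a). Ezh1, Setdb1 and Cbx5 gained a call as lower.

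Ratios also differed by chromosome. Medians of all tested genes on chromosomes 8, 11 and 19 lay 0.27, 0.20 and 0.16 above those of the other autosomes, and 9 members are on these 3 chromosomes, 7 of them on chromosome 11 (Kdm6b, Suz12, Cbx1, Pcgf2, Ezh1, Cbx2 and Cbx8). Of the 9, 6 were higher and 1 lower. Of all genes tested on chromosomes 8, 11 and 19, 67.5%, 60.9% and 58.2% were higher and 14%, 17.5% and 18.5% lower. Of the 33 members elsewhere, 9 were higher and 17 lower. Of all genes tested on each other autosome, 31.6% to 42.6% were higher and 32.4% to 45.2% lower. On the X chromosome 52.1% were higher and 25.5% lower. The median ratio of the members was 0.39 on chromosome 11 and −0.21 outside these 3 chromosomes. In a new fit with each gene centred on the median of its chromosome, a setting chosen after seeing the data, 4 of the 9 were higher and 3 lower, and over all 42 members 13 were higher and 21 lower. In that fit 77.1% of all genes passed, and 50.4% of the calls were higher. Suz12, Kdm6b, Cbx2 and Cbx8 remained higher, at 0.45, 0.87, 0.29 and 0.19. Ash2l and Pcgf6 did not pass, at −0.06 and −0.08, and Pcgf2 passed as lower, at −0.16 (adjusted p = 0.0063).

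**Figure D5:**
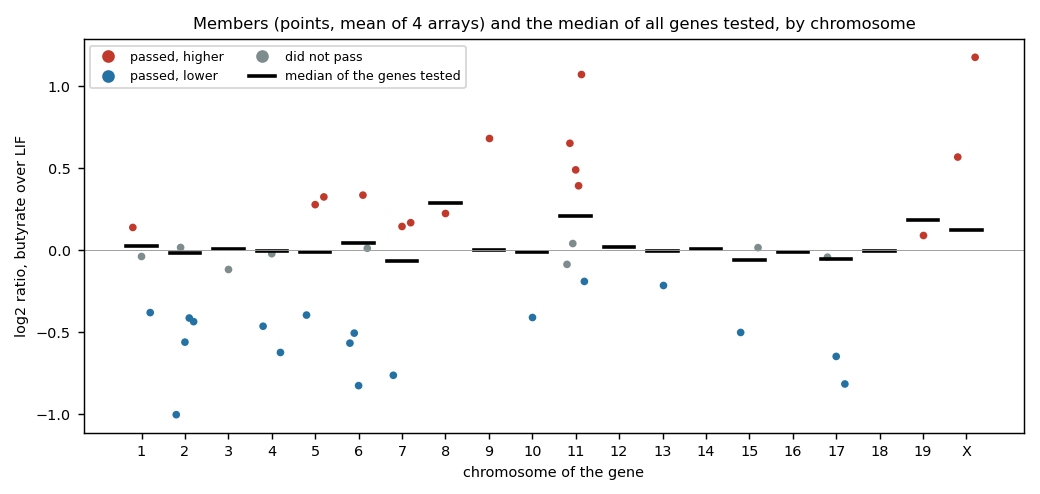
Mean log2 ratio of each member by the chromosome of its gene (points, coloured by call) with the median of all genes tested on that chromosome (black bars). The bars of chromosomes 8 (0.29), 11 (0.21) and 19 (0.18) stand above the rest, followed by X (0.12), and the higher members Kdm6b, Suz12, Cbx2 and Cbx8 lie on chromosome 11.

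Other subunits and enzymes of these pathways were read from a list of 53 genes, of which 52 were tested and Phc3 was not above background. Of these, 23 passed as higher, 15 as lower and 14 did not pass, with a median ratio of 0.07 against 0.03 over all genes. Of all genes tested, 41.7% passed as higher and 33.2% as lower. Large increases were those of Scml2, a PRC1-associated protein on the X chromosome (1.81 ± 0.13, adjusted p = 6.37e-08, 3 of 3 probes higher), and Pcgf5, a variant PRC1 subunit (1.66 ± 0.04, adjusted p = 1.93e-08, second probe 0.30). The largest decreases were those of Kdm4b, an H3K9 demethylase like Kdm4c (−1.21 ± 0.21, adjusted p = 2.39e-06), Smyd3, a lysine methyltransferase (−0.90 ± 0.02, adjusted p = 1.87e-07), and Kmt5c, a writer of H4K20 methylation in heterochromatin (−0.71 ± 0.10, adjusted p = 2.85e-06). Phc2, the Polyhomeotic relative of Phc1, was named after its values were seen: it was higher (1.26 ± 0.03, adjusted p = 4.89e-08) where Phc1 was lower. Kdm6a, the relative of Kdm6b on the X chromosome, also named after its values were seen, was lower (−0.41 ± 0.24, adjusted p = 0.00198).

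A list of 23 genes that carry the PRC2 mark in mouse embryonic stem cells, developmental regulators for the most part, had 20 tested genes. Pax3, Pax7 and Neurog2 were not above background in any sample. Of the 20, 13 passed as higher, 3 as lower and 4 did not pass, and the median ratio was 0.54 against 0.03 over all genes, of which 41.7% passed as higher and 33.2% as lower. Hoxb1 and Hoxd9 were among the genes called higher and passed the filter on dim probes through the butyrate samples only. With the strict filter, which requires a probe to be well above background in every sample, 11 were higher and 2 lower. Fewer of the 20 genes were tested under that filter. Of all genes 77.5% then passed, with 53.5% of those calls higher. The largest increases were those of Cdx2 (2.77 ± 0.45, 6.81-fold, adjusted p = 1.03e-06) and Hand1 (2.54 ± 0.20, 5.80-fold, adjusted p = 5.83e-08), both trophoblast factors. The neural factor Pax6 was lower (−0.63 ± 0.12, adjusted p = 8.5e-06). Olig2 and Neurog1 were lower by little under loess (−0.12 each, adjusted p = 0.0153 and 0.0211), and Neurog1 lay above 0 with median centring. Their ratios were larger in size in the authors' value table (−0.75 and −0.49) and with the scanner's ratio (−0.68 and −0.46). RNA levels do not measure the histone marks or the binding of the complexes at these genes.

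Markers of cell types differed between the same samples, and their counts stand beside 41.7% of all genes higher and 33.2% lower. Of 10 pluripotency markers 8 were lower, 1 higher (Nanog) and 1 did not pass, and their summed signal was 99600 to 104045 in LIF and 65097 to 72852 in butyrate. All 9 tested trophoblast markers were higher (summed signal 30796 to 35066 against 113167 to 116318), with Tpbpa not above background in either group. Krt8 and Krt18 were saturated in butyrate, so their signals there are lower limits. Of the 8 tested fibroblast markers 6 were higher and 2 lower (2132 to 2452 against 10531 to 10975), with Fap not above background. Endoderm markers were higher in 6 of 7 tested genes (4213 to 4410 against 13557 to 14483), with Ttr not above background, and neural markers split 2 higher and 2 lower of 5 (4468 to 4904 against 6498 to 6987). Of the markers called higher, Elf5 (trophoblast), Dcn (fibroblast) and Afp (endoderm) passed the filter on dim probes through the butyrate samples only. The filter therefore favoured a call as higher for them. Cdx2, Hand1, Eomes, Gata4, Gata6, Sox17, Foxa2, Pax6, Sox1 and Neurog2 stand both in these lists and among the genes with the PRC2 mark. The part of the cell types in the ratios of the members was not tested.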

How the data were processed

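RNA of 8 samples was measured on 4 arrays with 2 colours. The 8 scanner files came to 4 distinct scans, 1 for each array with its pair of samples. Scans were read with Agilent Feature Extraction 9.1, per the submitters' processing notes. The deposited scanner files give the intensity of each spot and channel. They also hold a log10 ratio of Cy5 over Cy3 that the scanner software had corrected for background and dye, per the file headers. The values deposited in the authors' table are log2, and each column, with a median of 6.487, followed the scanner's log2 processed signal of its channel (correlation at least 0.9996). How that table was made is not stated in these sources.

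Here, limma (3.58.1, R 4.3.3) took the mean signal with the median background through normexp at an offset of 50, which understates the fold of dim genes. Loess within each array followed, with the weight of control spots at 0. The 14 spots marked as outliers were missing, saturated spots were kept, and repeated spots were averaged into 41174 probes. A probe was tested if it stood well above background on 3 or more of the 4 arrays in at least 1 channel (25673 probes), and the brightest such probe stood for its gene, which gave 17198 genes. Names came from the RefSeq table of GRCm38.p6 by accession for 22951 probes, by symbol for 6659 and by synonym for 3109, while 8455 kept the name in the file. The array files name no genome build. Each gene's 4 log2 ratios were tested against 0 with limma's lmFit and eBayes, adjusted by Benjamini-Hochberg over all genes, at a threshold of 0.05. An exact test of 1 value over 4 arrays cannot go below p = 0.125 (two-sided) and was not used. Sample levels are log2 channel values after loess and Aquantile.

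Taking ratios within arrays holds the replicate number as a block. Samples with the same number deviated from their groups together (correlations over genes of 0.30, 0.15, 0.31 and 0.23, against −0.22 to 0.10 for other numbers), but since they share an array, no pairing of cultures follows. The steps were also run on simulated data in which few genes changed, evenly up and down. That run cannot test where the zero line lies in these data.

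The members and all gene lists were chosen with earlier results of these data known. Values of every sample are given for up to 3 members of each role with the largest ratio among those that passed with 1 sign, and for members whose probes passed in opposite directions. Of each list of other genes, the rule names the 3 largest increases and decreases, and 1 gene that it picks in each list is not reported here. Alternatives covered the scaling, the background, filters, the way probes are combined, the variance model, the replicate block and each replicate left out. The figures come from matplotlib 3.10.9 (Python 3.11.15).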

Additional observations from a re-analysis of the deposited data

Results flagged for a closer look

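Among 42 members and 10 group medians, the values of the 4 arrays were searched for a single array that stands far from the others, a pattern that chance gives in about 1 of 20 such sets of 4. This picked out 3 results. The log2 ratio of Ehmt2 was −0.795 on array 3 and −0.824 to −0.820 on the others, a gap that is small in itself because the others lay so close together. The ratio of Kdm1a was −0.113 on array 4 and −0.002 to 0.016 on the others, and without that array it was 0.01. The median of the 7 erasers, taken relative to all genes, was −0.146 on array 4 and −0.034 to −0.015 on the others. Kdm1a is the middle gene of the erasers on all 4 arrays, so the last of these results repeats the one before it.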

How the results depend on the processing

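Of the 33 members that passed, every one kept its sign and call with saturated spots missing, with the strict filter on dim probes and with a variance trend. Pcgf6 was lost with no filter (0.10, adjusted p = 0.0592) and with a normexp offset of 16. With no replicate block, 13 members were higher and 18 lower, Pcgf6 and Setd1a were lost, and no other call on a member changed. Leaving out 1 replicate gave 12 to 15 higher and 17 to 21 lower members. The slide as a block was not run, since all arrays shared 1 slide and 1 scan day.

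Centring on the median without loess gave 23 higher members and 1 lower. Tested singly, 24 probes were higher and 35 lower, a count of probes and not of genes. Of the other pathway genes, 13 were higher in the authors' value table and 15 with the scanner's ratio, against 23, and 1 was lower with median centring, against 15. Of the genes with the PRC2 mark, 1 was lower with median centring, 8 with arrays centred on the genes tested and no loess (chosen after seeing the data), and 1 to 3 with a replicate left out, against 3.

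Relative to all genes, both median centrings gave class medians of −0.20 for the PRC2 core, −0.037 for PRC1, 0.24 for trithorax, −0.25 for H3K9 writers, 0.12 for H3K79 and H3K36 writers, 0.069 for erasers and 0.16 for heterochromatin proteins. The authors' table gave 0.10 for PRC1 and −0.14 for heterochromatin. The scanner's ratio gave −0.36 for the PRC2 core, 0.10 for PRC1 and −0.093 for heterochromatin. No background correction gave 0.059 for PRC1 and −0.11 for heterochromatin. The mean of a gene's probes gave −0.25 for the PRC2 core, 0.066 for H3K79 and H3K36 writers and −0.052 for heterochromatin. Centring by chromosome gave −0.38 for the PRC2 core, −0.063 for trithorax and 0.022 for heterochromatin, and leaving out a replicate gave −0.12 to 0.002 for heterochromatin. The median of writers minus erasers was −0.17 in the authors' table, −0.22 with the scanner's ratio and −0.27 by chromosome.

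These ratios turned positive with median centring, in which the median of all genes lay at 0.41: Ezh1 0.32, Ezh2 0.013, Rbbp4 0.082, Jarid2 0.35, Mtf2 0.14, Ring1 0.35, Cbx7 0.091, Phc1 0.034, Rbbp5 0.55, Setdb1 0.48, Ehmt1 0.16, Suv39h2 0.060, Dot1l 0.18, Kdm1a 0.47, Kdm5b 0.21 and Cbx1 0.34. With arrays centred on the genes tested, Pcgf2 lay at −0.050, Bmi1 at −0.27, Rbbp5 at 0.13, Setdb1 at 0.063 and Kdm1a at 0.056. In the authors' table Ring1 lay at 0.00, Pcgf2 at −0.19, Cbx3 at −0.12 and Cbx5 at −0.45, and with the scanner's ratio at 0.011, −0.17, −0.048 and −0.43. Another brightest probe stood for Ring1 and Cbx5 in both, and for Cbx5 with no background correction (−0.34). The mean of a gene's probes gave Rnf2 −0.098, Ring1 0.031, Cbx3 −0.018 and Cbx5 −0.13. Centring by chromosome gave Ring1 0.018, Pcgf6 −0.077, Pcgf2 −0.16, Ash2l −0.055 and Cbx3 −0.029. With a replicate left out, Kdm1a ran from −0.033 to 0.010, Cbx3 from −0.002 to 0.033 and Cbx5 from −0.38 to 0.069. Beyond the scaling itself and the change of probe, the cause was not tested.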
